A study of Mus musculus with 26 samples.

Results

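Microglia sorted from the cortex of juvenile mice at postnatal day 14 (P14) were compared between pups of mothers given poly(I:C) and pups of mothers given saline, to ask whether an immune challenge before birth was still visible in the RNA of these cells after birth. Barcodes of the sorted P14 libraries were kept when they held at least 500 genes and at most 20% of their unique molecular identifiers (UMIs) on mitochondrially encoded genes. They also needed a total of at least 3 UMIs summed over Csf1r, C1qa, C1qb and Cx3cr1. This kept 29598 of the 30890 barcodes listed for P14, out of 73356 listed for all 18 sorted microglia libraries of the series. The saline group had 19024 cells in 4 libraries and the MIA group (maternal immune activation) had 10574 cells in 2 libraries. UMIs were summed per library, and the library was the replicate.

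All mice were wild-type C57Bl/6N, and mothers were injected intraperitoneally at E12.5, in mid-gestation. Poly(I:C), a synthetic nucleic acid that triggers antiviral sensors, was the treatment and saline the control. The tissue was the primary somatosensory (S1) cortex, and cells were sorted as Cd11b+, Cx3cr1+ and Cd45low and prepared with a droplet 3′ kit. By the study's sample list, saline replicates 1 and 2 and MIA replicates 1 and 2 each pooled a male and a female littermate, whereas saline replicate 3 was a female pup (3F) and a male pup (3M) prepared as separate libraries. The study's sources differ on the number of pups, and a figure legend counts fewer. The sources used here do not say whether different libraries came from separate mothers, so p-values measure the spread between these libraries. Fewer cells of a kind and less RNA per cell cannot be told apart in sums of this sort.

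Microglia are the resident macrophages of the brain. They enter it before birth, live long and renew themselves, and in the second postnatal week they clear debris, prune synapses and settle into the adult, homeostatic program that depends on Csf1r, TGF-beta and transcription factors such as Sall1 and Mef2c. Double-stranded RNA is sensed by Tlr3 in endosomes and by the helicases Ddx58 and Ifih1 in the cytosol, which switch on interferon-stimulated genes and, through NF-kB, inflammatory cytokines.

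The 6 libraries had between 3741 and 5774 cells and between 22043359 and 32389816 UMIs, and the median cell of a library had between 3690.5 and 6840 UMIs. The median UMIs per cell were 5418 ± 1324 (SD, n = 4) in saline and 5560.5 ± 1241 (SD, n = 2) in MIA, and the median mitochondrial share was 1.18% ± 0.0451 in saline and 1.31% ± 0.155 in MIA. Two-sided exact permutation tests gave p = 1 and p = 0.4, but 15 splits allow no p under 0.133. MIA 2 had the highest mitochondrial share, 1.42%, and the other 5 libraries lay between 1.118% and 1.217%. The cells carried the microglial program in every library. P2ry12, the purinergic receptor of resting microglia, was at 6078, 6058, 5779 and 5733 CPM (UMIs per 1000000) in saline 1, 2, 3F and 3M and at 5903 and 6394 CPM in MIA 1 and 2, and Tmem119 was at 1360 to 1516 CPM in saline and 1443 and 1541 CPM in MIA. Sums of marker lists hold only the genes that passed the filter on low counts. Of T and NK cell markers only Trbc2 passed, at between 0.0782 and 0.710 CPM. Monocyte markers that passed summed to between 16.6 and 21.6 CPM. Of neutrophil markers only Csf3r passed, at between 116 and 133 CPM. The B cell markers that passed, Ighm and Cd79b, summed to between 303 and 338 CPM.

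Saline 3F and 3M stood apart from the other 4 libraries. The first principal component, with 53.2% of the variance, held them on one side and the 4 pooled libraries on the other. Mki67, a marker of dividing cells, was at 47.4 and 44.3 CPM in 3F and 3M, at 9.60 and 7.56 CPM in saline 1 and 2, and at 11.3 and 2.32 CPM in MIA 1 and 2. The pooled saline libraries were therefore close to MIA 1 in this gene, and the 2 single-pup libraries alone were high. Red blood cell markers summed to 1322 CPM in 3F and 407 CPM in saline 1, and to between 3.81 and 95.1 CPM in the other 4. Neuron markers were low in 3F and 3M (68.0 and 72.2 CPM) and between 122 and 290 CPM elsewhere. Between 0 and 229 barcodes were shared by a pair of libraries, the most by 3F and 3M (4.91% of the smaller library) and next by saline 1 and MIA 1 (114, or 2.03%). For these reasons the values below are given for all 6 libraries and, where stated, for 2 against 2 without 3F and 3M, a choice made after the libraries were seen. An alternative fit dropped barcodes with more than 2 UMIs of neuron, red blood cell or border-associated macrophage markers. In it edgeR's quasi-likelihood test called 0 genes, with 531 of 12523 at an unadjusted p under 0.05. The part of proliferation in any single gene's difference was not tested, nor that of such RNA in the barcodes kept.

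**Figure D1:**
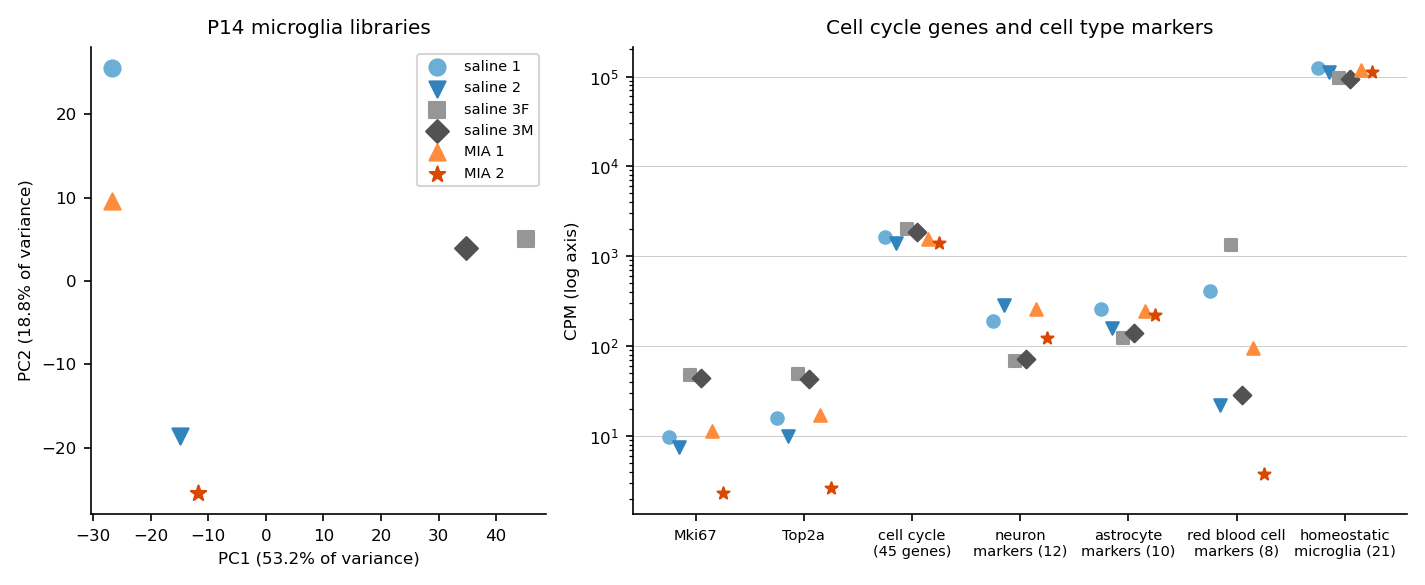
Left, the 6 P14 libraries on the first 2 principal components of their log2 CPM, where saline 3F and 3M lie to the right of the other 4. Right, CPM per library on a log axis for Mki67 and Top2a and for the summed cell cycle, neuron, astrocyte, red blood cell and homeostatic microglia lists, each symbol being 1 library: dividing-cell genes are high in 3F and 3M, and MIA 2 has the lowest Mki67 at 2.32 CPM.

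No gene passed the test between MIA and saline. Of 13390 genes tested with edgeR's quasi-likelihood test, 0 (0%) had a Benjamini-Hochberg adjusted p under 0.05, and the lowest adjusted p was 0.961. At an unadjusted p under 0.05 there were 415 genes (3.10%), 167 higher in MIA (1.25%) and 248 lower (1.85%). This count moved with single saline libraries. It was 1391 without saline 1 (598 higher, 793 lower) and 652 without saline 2 (286 and 366). It was 186 without 3F (99 and 87) and 175 without 3M (88 and 87). DESeq2 on the same sums called 1 gene of 13387 (0.00747%), Bhlhe41. Without 3F and 3M, edgeR again called 0 genes, with 177 at an unadjusted p under 0.05 (87 higher, 90 lower). Both MIA libraries lay above all 4 saline libraries for 689 genes (5.15%) and below them for 788 (5.88%). For libraries that differ only at random, each of these orders arises in 1 of 15 splits.

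Only large differences were bounded for most expressed genes, in a fit that took 3F and 3M as separate libraries. Of the 6125 genes with a mean of at least 20 CPM, 6056 (98.9%) had a 95% interval of the fold change that lay inside 2-fold in either direction, and 5796 (94.6%) lay inside 1.5-fold. Smaller changes fit inside these limits, such as the median log2 sizes of 0.16 and 0.22 of the study's E13 and E15 genes at their own age. Over all 13390 genes the share inside 2-fold was 77.9%, since genes with few UMIs had wide intervals. An estimate past 2-fold was found for 14 genes with at least 20 CPM, among them the hemoglobin genes Hba-a1, Hba-a2, Hbb-bs and Hbb-bt and the division genes Mki67, Top2a and Hist1h1b, which had negative log2 fold changes and their highest level in 3F, and the stress-induced gene Ddit4, with a positive one.

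**Figure D2:**
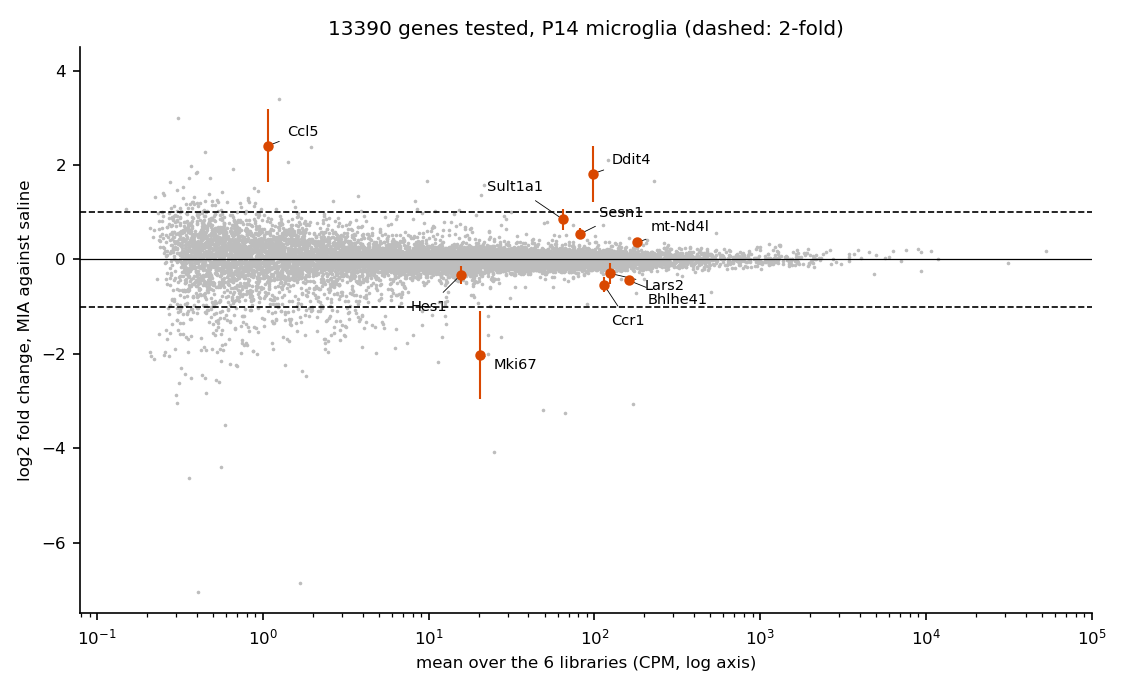
Log2 fold change, MIA against saline, of the 13390 tested genes against their mean CPM over the 6 libraries (log axis), with dashed lines at 2-fold and bars of 1 SE on the named genes. The cloud narrows from left to right, and most genes above 20 CPM lie well inside the dashed lines, with Ddit4 and Mki67 outside them.

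The 24 genes described next were those with the lowest unadjusted p at a mean of at least 20 CPM, 12 in each direction, and none was called by edgeR. In all 24 the MIA and saline libraries did not overlap, which the choice by p favours. Of all genes, 5.15% lay above and 5.88% below all saline libraries in this way.

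The gene with the lowest p was Bhlhe41 (ENSMUSG00000030256, chromosome 6, 145858243 to 145865558, minus strand, GRCm38), a helix-loop-helix transcriptional repressor of the circadian clock that is part of the transcription factor set of mature microglia. It was at 166, 186, 186 and 171 CPM in saline 1, 2, 3F and 3M and at 126 and 134 CPM in MIA 1 and 2. Both MIA libraries were thus below every saline library, and the saline libraries that stood apart in other genes did not stand apart here. The log2 fold change was -0.45 ± 0.081 (SE, 4 saline and 2 MIA libraries, 95% interval -0.63 to -0.26), with a Benjamini-Hochberg adjusted p of 0.961 by edgeR's quasi-likelihood test and 0.00180 by DESeq2. It was -0.43 without 3F and 3M, and between -0.49 and -0.40 when each library was left out in turn. In cells called female by Xist or Tsix it was -0.31 and in cells called male -0.56.

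Ccr1, the receptor of chemokines such as Ccl3 and Ccl5, was at 143, 104, 136 and 125 CPM in saline 1, 2, 3F and 3M and at 99.9 and 75.6 CPM in MIA 1 and 2. MIA 1 was close to the lowest saline library, and the log2 fold change was -0.53 ± 0.15 (SE). It was -0.35 without MIA 2 and -0.75 without MIA 1, and -0.20 in female and -0.82 in male cells. The male cells of MIA 2 were at 52.8 CPM, and the other 9 sums of library and sex between 84.1 and 153 CPM. With replicate number as a block it was called by DESeq2 (Benjamini-Hochberg adjusted p = 0.000271) and not by edgeR. In all fits with this block, number 3 holds only saline libraries, so the treatment difference comes from replicates 1 and 2. Mrc1, a marker of border-associated macrophages, was at 63.9, 65.7, 86.9 and 89.5 CPM in saline and at 60.7 and 50.2 CPM in MIA (-0.47, and -0.22 for 2 against 2). Of 11 tested markers of these macrophages, 8 were below 0 with a median of -0.18, and 8 were above 0 with a median of 0.062 for 2 against 2. Their summed level was between 292 and 352 CPM in saline and at 306 and 289 CPM in MIA. Their part in the Ccr1 value was not tested beyond the alternative that dropped barcodes with such markers. Nrp1, a receptor for semaphorins and VEGF, was between 139 and 176 CPM in saline and at 131 and 106 CPM in MIA, a log2 fold change of -0.41 that was -0.27 without MIA 2, and -0.14 in female and -0.56 in male cells. Kcnq1ot1, a long noncoding RNA of an imprinted domain, was between 123 and 146 CPM in saline and at 109 and 107 CPM in MIA, a log2 fold change of -0.35. In Ccr1, Nrp1 and Kcnq1ot1 the gap between the groups was narrower than the range of the saline libraries. The other 8 were Mical3, Nit1, Zbtb26, Gm31243, Irf2bpl, Cdc14a, Rreb1 and Dusp3, with log2 fold changes between -0.41 and -0.25. They include Irf2bpl, Rreb1 and Zbtb26, which encode DNA-binding or ring-finger regulators, and the phosphatases Cdc14a and Dusp3. Mical3 was at -0.11 in female and -0.68 in male cells, and Irf2bpl at -0.13 and -0.28.

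Among the 12 genes higher in MIA, Sesn1 had the lowest p. It encodes a sestrin, a stress-induced protein that restrains mTORC1. It was at 69.8, 83.2, 65.2 and 67.5 CPM in saline 1, 2, 3F and 3M and at 115 and 93.5 CPM in MIA 1 and 2, a log2 fold change of 0.54 ± 0.12 (SE, 95% interval 0.26 to 0.82) and 0.44 without 3F and 3M. MIA 2 was nearer to saline 2 than to MIA 1. Of the other sestrins, Sesn2 had a log2 fold change of -0.22 with overlapping groups, and Sesn3 was between 10.2 and 11.0 CPM in saline and at 9.97 and 9.56 CPM in MIA.

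mt-Nd4l, which encodes a small subunit of respiratory complex I on the mitochondrial genome (positions 9877 to 10173), was between 152 and 186 CPM in saline and at 213 CPM in both MIA libraries, a log2 fold change of 0.36. Its 3′ end overlaps the start of mt-Nd4 at position 10167, and reads there may be split between the genes. Of 13 mitochondrial transcripts tested, mt-Nd4l included, 12 had a fold change above 0, mt-Nd4l was the 1 with an unadjusted p under 0.05 (3.10% of all genes), and the median log2 fold change was 0.036. Without 3F and 3M, 9 were above 0 and the median was 0.071.

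Sult1a1, a sulfotransferase, was between 40.4 and 62.8 CPM in saline, at 69.2 CPM in MIA 1 and at 114 CPM in MIA 2, so that MIA 2 lay furthest from saline (log2 fold change 0.85 ± 0.22, SE, and 0.44 without MIA 2). Rcan1, an inhibitor of calcineurin, was between 26.5 and 33.8 CPM in saline and at 37.9 and 47.1 CPM in MIA (log2 fold change 0.50, and 0.34 without MIA 2), with 0.0096 in female cells and 0.77 in male cells. Pnpla2, which encodes the main triglyceride lipase, was between 47.2 and 52.0 CPM in saline and at 57.2 and 75.2 CPM in MIA (0.40, and 0.19 without MIA 2). In Sult1a1, Rcan1 and Pnpla2, MIA 2 was the highest library and MIA 1 was close to the saline libraries. The other 7 were B3galnt1, Dcxr, Trmt10a, Sap30, Anapc16, Inafm1 and C1qbp, with log2 fold changes between 0.22 and 0.72. Without MIA 2, Inafm1 went from 0.40 to 0.21 and Anapc16 from 0.37 to 0.24. In female cells Anapc16 was at 0.00096, B3galnt1 at 0.031, C1qbp at 0.075, Dcxr and Inafm1 at 0.14, and Sap30 at 0.17. In male cells these were at 0.59, 0.73, 0.33, 0.53, 0.53 and 0.53. The sex by treatment term, described below, was called by edgeR's main fit for none of them. Trmt10a was at 0.70 in female and 0.66 in male cells.

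The study's own list for all P14 microglia held 21 genes, of which 20 were tested here. It was chosen on these libraries, so its members' directions are no independent evidence. For that list the study summed counts by sample and sex and used DESeq2, with sex and sequencing batch as covariates. Its unit, test and covariates thus differ from those of the edgeR fit here. The study also measured Hes1 and Lars2 in P14 cortex by RNA in situ hybridization. It reported less Hes1 in microglia after MIA and no significant change of Lars2. At an unadjusted p under 0.05, 3 of the 20 were higher in MIA and 3 lower (6 of 20, beside 3.10% of all genes), and 0 passed the adjusted test in edgeR. Bhlhe41, Gm26526 and Gm43221 were lower, and mt-Nd4l, Sesn1 and the predicted gene Gm26510 were higher.

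Hes1 (ENSMUSG00000022528, chromosome 16, 30064384 to 30067796), the repressor that carries the output of Notch signaling, was at 19.9 and 19.3 CPM in saline 1 and 2, at 14.8 and 12.8 CPM in saline 3F and 3M, and at 14.5 and 12.04 CPM in MIA 1 and 2. The MIA libraries were below saline 1 and 2 and overlapped 3F and 3M. The log2 fold change was -0.33 ± 0.19 (SE) over all 6 libraries, -0.57 for 2 against 2, and between -0.47 (without MIA 1) and -0.21 (without MIA 2) when 1 library was left out. Of 25 tested Notch and Hes genes, 1 was higher and 1 lower at an unadjusted p under 0.05 (1.25% and 1.85% of all genes), with a median log2 fold change of -0.011. Notch1 was between 27.8 and 31.0 CPM in saline and at 27.9 and 28.8 CPM in MIA, and Rbpj, the DNA-binding partner of cleaved Notch, was between 82.4 and 131 CPM in saline and at 107 and 97.4 CPM in MIA. These levels overlapped between the groups.

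Lars2 (chromosome 9, 123366927 to 123462666, plus strand), the mitochondrial leucyl-tRNA synthetase, was at 121, 189, 105 and 116 CPM in saline 1, 2, 3F and 3M and at 99.0 and 117 CPM in MIA 1 and 2. Saline 2 alone was high. The log2 fold change was -0.30 ± 0.23 (SE), and it was -0.080 without saline 2 and -0.52 for 2 against 2. With replicate number as a block it was called by DESeq2 (-0.50, Benjamini-Hochberg adjusted p = 0.00859) and not by edgeR. Only replicates 1 and 2 inform that difference, as in 2 against 2. Gm42418, a gene model that overlaps ribosomal RNA on chromosome 17, was at 4833, 7557, 4419 and 4033 CPM in saline and at 3929 and 4426 CPM in MIA, so saline 2 was the highest library in this transcript too, and its part in the Lars2 value was not tested. Of 17 tested mitochondrial aminoacyl-tRNA synthetases, 0 had an unadjusted p under 0.05 in edgeR (3.10% of all genes). Their median log2 fold change was -0.062, and 0.045 with 9 above 0 for 2 against 2.

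Several members of the list depended on 3F and 3M. Plek, a protein kinase C substrate, was at 452 and 301 CPM in saline 1 and 2, at 214 and 239 CPM in 3F and 3M, and at 336 and 272 CPM in MIA. Its log2 fold change was 0.013 ± 0.28 (SE) over all libraries and -0.31 for 2 against 2. AC149090.1 showed the same arrangement, with 0.021 over all libraries and -0.30 for 2 against 2. With replicate number as a block it was called by DESeq2 (Benjamini-Hochberg adjusted p = 0.02835) and not by edgeR. Plxdc2, mt-Co1, Zfp36l1, Elk3 and Hk2 had log2 fold changes between -0.17 and 0.15 over all libraries, and in each the groups overlapped. For 2 against 2, Hk2 went from -0.019 to -0.25, Elk3 from -0.10 to -0.25, Zfp36l1 from 0.076 to 0.24 and Plxdc2 from -0.17 to -0.24. The median over the 20 tested genes of the list went from -0.051 to -0.27.

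**Figure D3:**
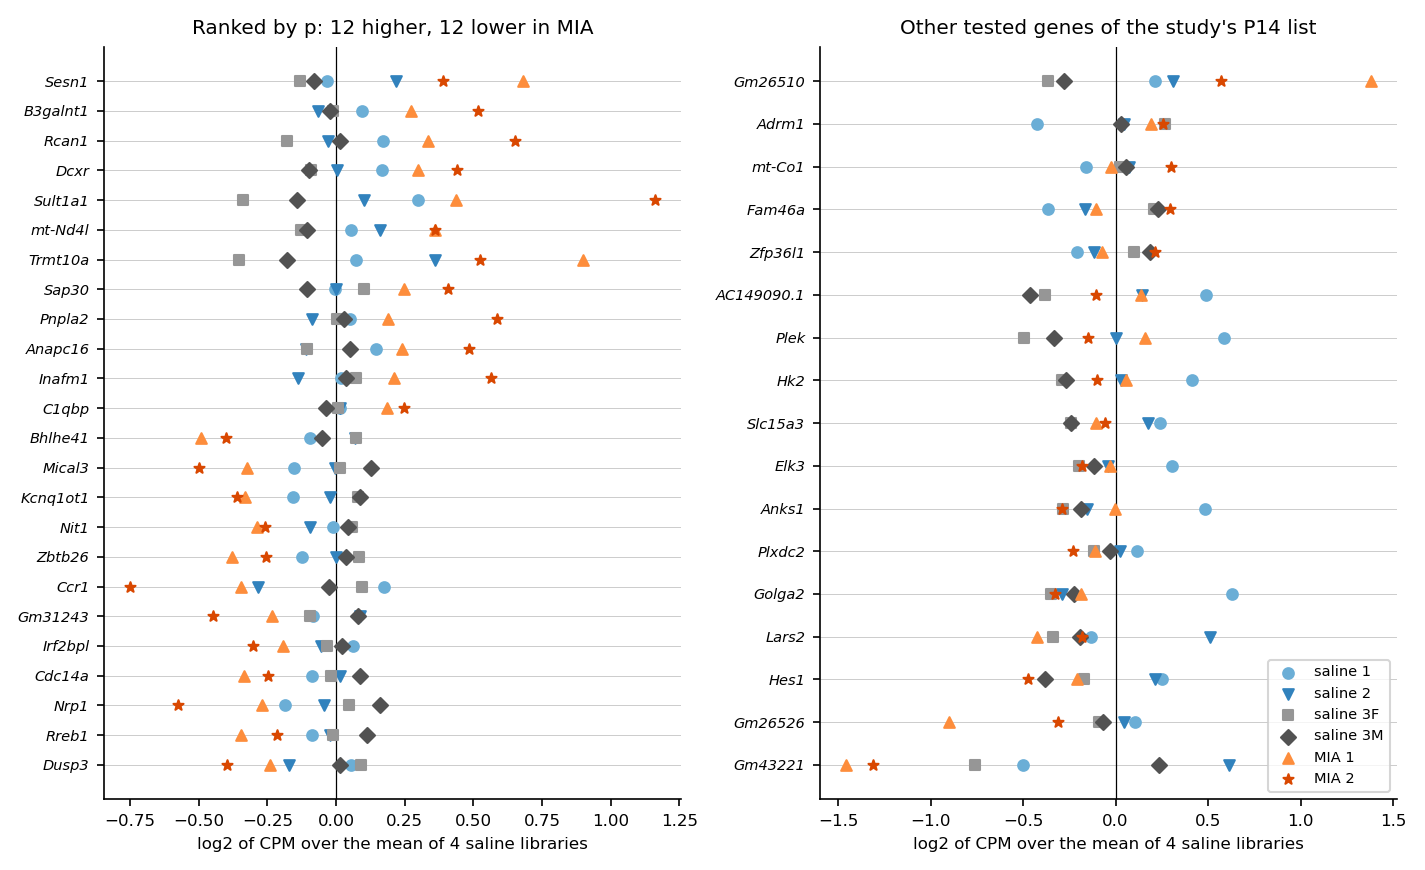
Each point is 1 library, plotted as log2 of its CPM over the mean of the 4 saline libraries. Left, the 24 ranked genes, in which both MIA libraries lie on one side of all saline libraries. Right, the 17 other tested genes of the study's P14 list, in which Plek, Hk2 and AC149090.1 run from 3F and 3M at the low end to saline 1 at the high end, with the MIA libraries between them.

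The gene groups named for the response to double-stranded RNA lay near 0. Of 35 tested interferon-stimulated genes, 0 had an unadjusted p under 0.05 in edgeR (3.10% of all genes) and 12 had a fold change above 0. Their median log2 fold change was -0.083, beside -0.00095 for all genes, of which 6653 of 13390 were above 0. Isg15, a ubiquitin-like interferon target, was between 9.45 and 16.4 CPM in saline and at 8.88 and 15.1 CPM in MIA. Among 16 genes listed as double-stranded RNA sensors and adaptors, 0 had an unadjusted p under 0.05 in edgeR (3.10% of all genes). Their median was -0.023, and 0.044 with 10 above 0 without 3F and 3M. The list also holds Tlr7, a sensor of single-stranded RNA. Tlr3 was between 69.9 and 107 CPM in saline and at 94.0 and 81.0 CPM in MIA, inside the saline range.

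Inflammatory chemokines and cytokines had 18 tested members, of which 3 were higher and 0 lower at an unadjusted p under 0.05 (1.25% and 1.85% of all genes), with a median log2 fold change of 0.18 that was -0.016 without 3F and 3M. The 3 were Ccl3, Ccl5 and Il1b, and Ccl5 and Il1b averaged about 1 CPM or less. Ccl3 was at 18.3, 18.2, 15.8 and 10.2 CPM in saline and at 19.5 and 27.3 CPM in MIA (log2 fold change 0.59 ± 0.24, SE), which was 0.32 without MIA 2, 0.81 without MIA 1 and -0.040 in female cells. Ccl5 was between 0.0455 and 1.08 CPM in saline and at 1.42 and 3.34 CPM in MIA, and Il1b was at 0.600 and 1.145 CPM in MIA and between 0.155 and 0.548 CPM in saline. With replicate number as a block DESeq2 called Ccl5 (log2 fold change 4.035, Benjamini-Hochberg adjusted p = 0.02835), and edgeR did not. Il6 and Tnf, cytokines of the acute inflammatory response, were low in every library. Il6 was between 2.07 and 3.99 CPM in saline and at 3.00 and 4.36 CPM in MIA, and Tnf was between 2.46 and 3.64 CPM in saline and at 3.15 and 2.41 CPM in MIA. These levels overlapped between the groups.

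Of 19 tested genes of antigen presentation, 3 were higher and 0 lower at an unadjusted p under 0.05 (1.25% and 1.85% of all genes), and 4 lay above all saline libraries (5.15% of all genes) and 1 below them (5.88%). The median log2 fold change was 0.098 with 15 members above 0, and 0.050 with 11 above 0 without 3F and 3M. The class I heavy chain H2-D1 was at 270, 280, 240 and 237 CPM in saline and at 331 and 307 CPM in MIA (0.31 ± 0.092, SE). H2-K1 was between 151 and 175 CPM in saline and at 201 and 187 CPM in MIA (0.26). Without 3F and 3M the log2 fold change was 0.22 for H2-D1 and 0.17 for H2-K1. Cd74, the class II invariant chain, was between 7.16 and 13.1 CPM in saline and at 15.6 and 16.2 CPM in MIA (0.63). B2m, the light chain of class I molecules, was at 1442 and 1526 CPM in saline 1 and 2, 938 and 970 CPM in 3F and 3M, and 1493 and 1536 CPM in MIA, so that only 3F and 3M were low. Genes of this kind that share near-identical sequence, as the H2 family does, may exchange reads in counting.

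The homeostatic list showed little movement. All 21 members were tested, and 0 had an unadjusted p under 0.05 in edgeR (3.10% of all genes). Their log2 fold changes ran from -0.11 to 0.21 with a median of 0.022, and -0.028 with 8 above 0 without 3F and 3M. All 21 intervals lay inside 2-fold, as did 98.9% of genes with at least 20 CPM. The list includes Csf1r and Cx3cr1, which the barcode rule used. Of 24 microglial transcription factors, 2 were higher (Cebpb and Klf4) and 1 lower (Bhlhe41) at an unadjusted p under 0.05 (1.25% and 1.85% of all genes), and the median was -0.024. Both higher members had their top level in the male cells of MIA 2. Cebpb was at 263 CPM there and between 126 and 184 CPM in the other 9 sums of library and sex, and its log2 fold change of 0.46 was 0.22 without MIA 2, 0.0051 in female cells and 0.71 in male cells. Klf4 went from 1.37 to 0.64 without MIA 2. Mef2c, Spi1 and Sall1 each had a log2 fold change within the range of the homeostatic list and overlapping groups. Complement genes (14 tested, median 0.062), lysosomal and phagocytic genes (48 tested, median 0.044), purinergic genes (11 tested, median 0.040) and the Clec7a-Itgax-Spp1 genes of reactive microglia (21 tested, median 0.034) had in all 1 member higher and 1 lower at an unadjusted p under 0.05 (1.25% and 1.85% of all genes). The complement list holds C1qa and C1qb, which the barcode rule used.

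Metabolic and translational lists were likewise close to 0 in size, although a few had most of their members on one side. Nuclear genes of oxidative phosphorylation had 68 of 73 members above 0 with a median of 0.094, but 41 above 0 and a median of 0.0068 without 3F and 3M. Proteasome subunits had 34 of 42 above 0 and a median of 0.056, and 32 above 0 with a median of 0.035 without 3F and 3M. Cytosolic ribosomal proteins had 27 of 77 above 0 and a median of -0.053, and 27 above 0 with a median of -0.0076 without 3F and 3M. In these 3 lists 1 member, a proteasome subunit, had an unadjusted p under 0.05 (3.10% of all genes).

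The cell cycle list had the lowest median of all lists but the red blood cell markers. Of 45 tested members, 42 had a fold change below 0, 3 were lower at an unadjusted p under 0.05 (1.85% of all genes), and the median log2 fold change was -1.02. Without 3F and 3M the median was -0.11 and 16 members were above 0. Top2a was at 48.9 and 42.4 CPM in 3F and 3M, 15.9 and 9.96 CPM in saline 1 and 2, 17.1 CPM in MIA 1 and 2.60 CPM in MIA 2. MIA 1 was thus at the level of saline 1, and MIA 2 was below every library. Among lists of other cell types, astrocyte markers had all 10 members above 0 with a median of 0.55 (0.11 without 3F and 3M), and their sum was 123 to 259 CPM in saline and 247 and 220 CPM in MIA. Slc1a3, the most abundant of them and also expressed by microglia, was at 138, 104, 101 and 101 CPM in saline and at 134 and 154 CPM in MIA. Of the other members, Slc1a2 was between 10.6 and 65.9 CPM, Aldoc between 3.87 and 26.8 CPM and Clu between 2.11 and 17.6 CPM over the 6 libraries, each lowest in 3F, while Aqp4 and Gfap were at most 1.91 CPM. The part of astrocyte RNA in other genes' values was not tested.

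**Figure D4:**
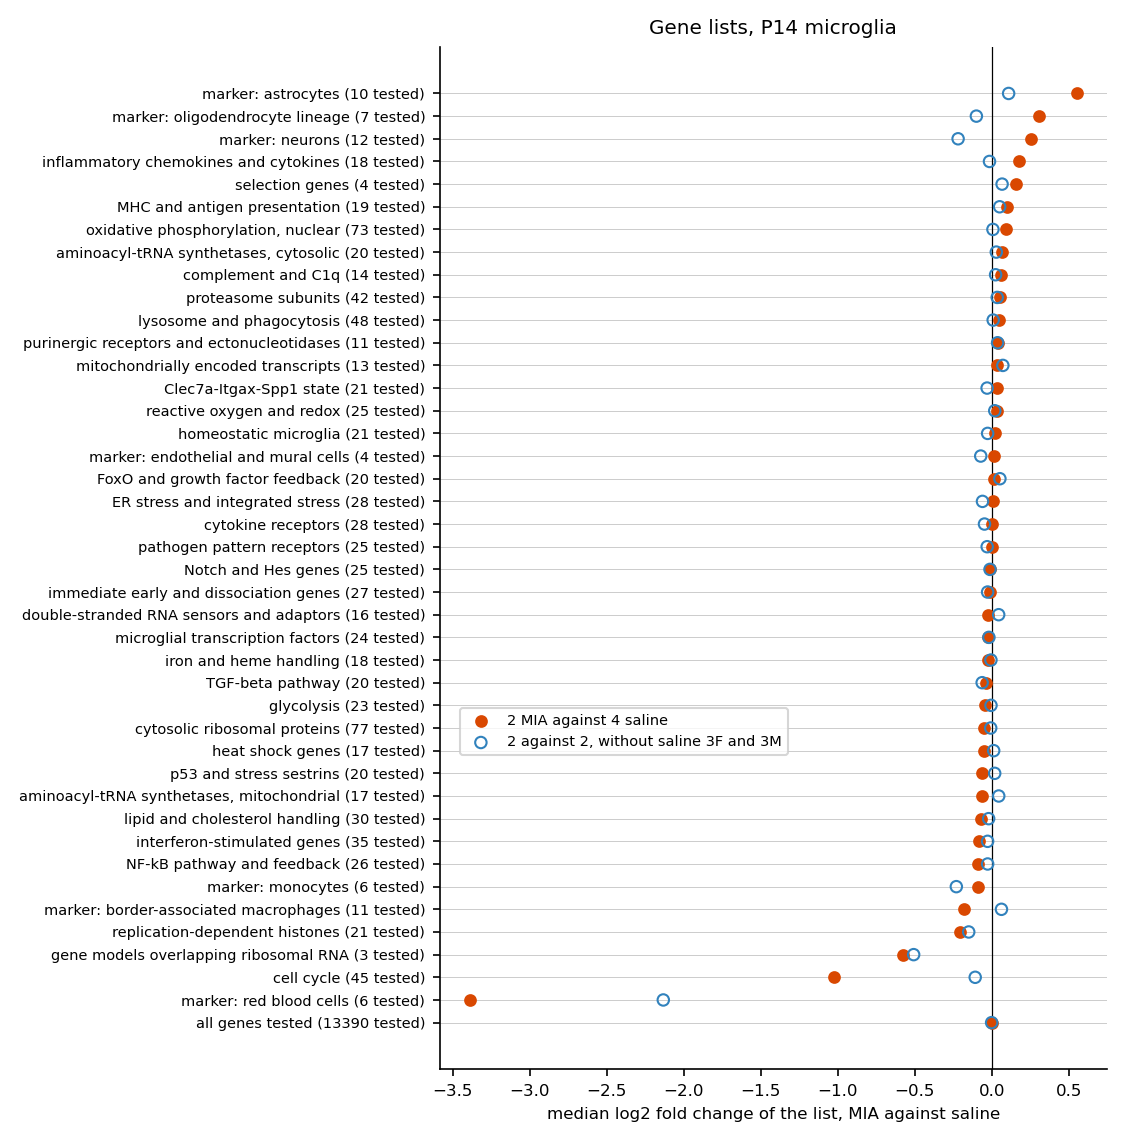
Median log2 fold change, MIA against saline, of each gene list (number of tested members in parentheses) with all 6 libraries (filled) and for 2 against 2 without saline 3F and 3M (open). Most lists lie near 0, and the cell cycle list goes from -1.02 to -0.11 when 3F and 3M are left out.

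Cells were split by sex to see whether the treatment difference was the same in female and male pups. Of the cells that could be called, 67.0% and 68.2% were female in saline 1 and 2, 58.4% and 43.9% in MIA 1 and 2, 99.1% in 3F and 2.96% in 3M, so the labels of the single-sex libraries held. Between 21.3% and 36.4% of the cells of a pool could not be called, beside 6.18% in 3F and 36.6% in 3M, so the female share of called cells can lie above that of all cells. In each pooled library the female and male cells come from 1 pup each by the study's list. The sex by treatment term, fitted by edgeR in the 4 pooled libraries with library as a block, was called for 0 of 12070 genes, and 694 (5.75%) had an unadjusted p under 0.05. DESeq2 called 1, and edgeR with no filter on low counts called 113 (42 higher, 71 lower).

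Ccl2, a chemokine that draws monocytes, had the lowest p of the interaction (female minus male difference in log2 fold change -3.31 ± 0.39, SE, edgeR quasi-likelihood test, Benjamini-Hochberg adjusted p = 0.0630). In saline 1 and 2 it was at 21.5 and 14.2 CPM in female cells and at 6.19 and 10.9 CPM in male cells. In MIA 1 and 2 it was at 3.31 and 2.20 CPM in female cells and at 16.6 and 11.6 CPM in male cells. The order of the sexes was thus opposite in the treatments, in both libraries of each, while the single-pup libraries were low in both sexes, at 3.902 CPM in 3F and 3.09 CPM in 3M. Egr1, an immediate early transcription factor, had the same order, with 14.4 and 9.05 CPM in female and 5.61 and 4.66 CPM in male saline cells, and 4.48 and 3.95 CPM in female and 10.1 and 6.49 CPM in male MIA cells, while the single-pup saline libraries were at 5.24 CPM in 3F and 6.99 CPM in 3M. B3galnt1 was at 54.1 and 60.8 CPM in male MIA cells and at most 44.4 CPM in all other sums.

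Ddit4, Fkbp5, Tsc22d3 and Klf4 were high in a single sum, the male cells of MIA 2, which come from 1 pup by that list. These 4 genes were chosen after their values were seen. Ddit4, an inhibitor of mTORC1, was at 449 CPM there and between 18.4 and 83.8 CPM in the other 9 sums of library and sex, including 61.4 CPM in the female cells of the same library. Fkbp5, a chaperone of the glucocorticoid receptor, was at 246 CPM against 67.5 to 149 CPM, and Tsc22d3 at 133 CPM against 25.6 to 56.1 CPM. Klf4 was at 72.1 CPM against 8.49 to 25.5 CPM. Over all cells Ddit4 was therefore at 312 CPM in MIA 2 and 63.1 CPM in MIA 1, inside the saline range of 21.8 to 71.0 CPM, and its log2 fold change went from 1.82 to 0.24 without MIA 2. Several of the ranked genes shared this shape. In male MIA 2 cells Sult1a1 was at 140 CPM against 41.8 to 74.9 CPM elsewhere. Pnpla2 was at 89.4 CPM there against 44.9 to 60.5 CPM, and Rcan1 at 57.6 CPM against 26.5 to 40.1 CPM. Bhlhe41 did not share this shape. It was at 129 and 124 CPM in the female and male cells of MIA 1 and 159 and 120 CPM in those of MIA 2. In all 6 saline sums it was between 163 and 192 CPM.

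**Figure D5:**
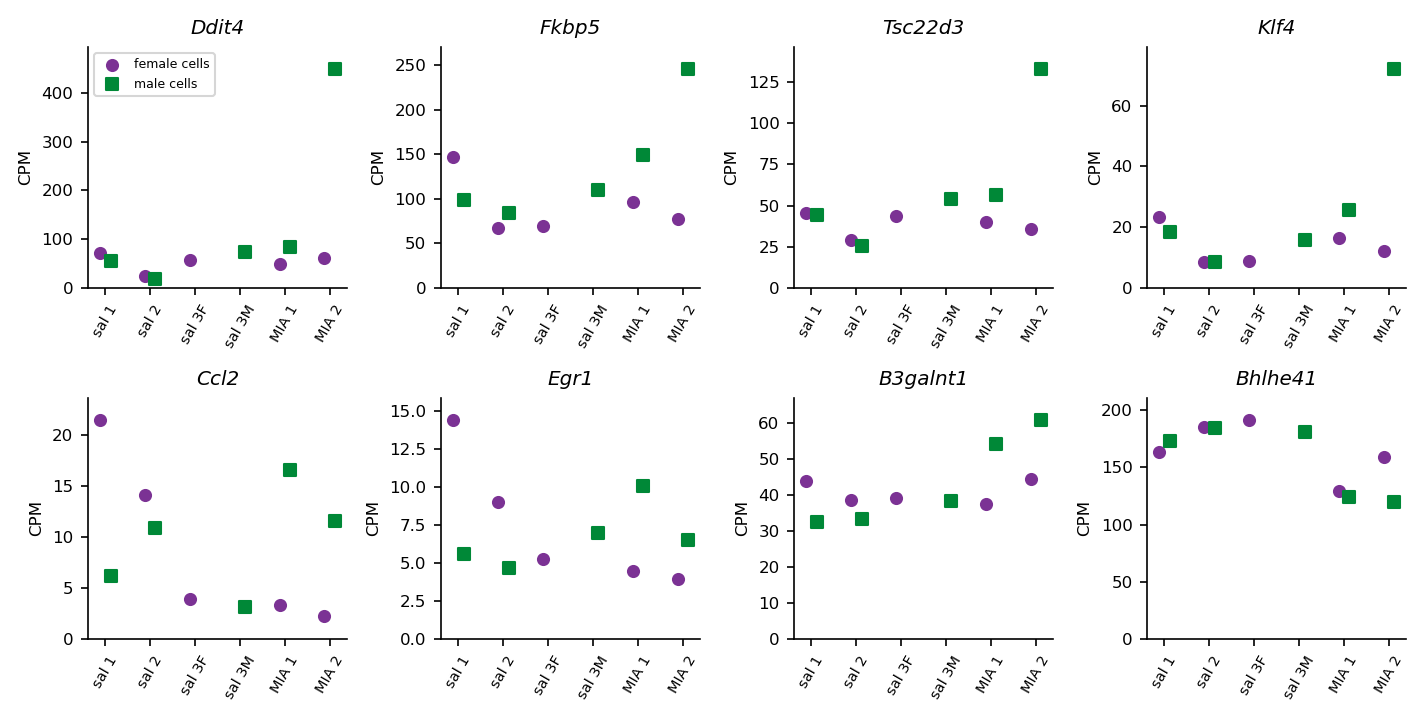
CPM per library for cells called female (circles) and male (squares), each axis starting at 0. Ddit4, Fkbp5, Tsc22d3 and Klf4 are high in the male cells of MIA 2 alone, Ccl2 and Egr1 are higher in female cells of saline 1 and 2 and in male cells of MIA 1 and 2, and Bhlhe41 is lower in all 4 MIA sums than in the 6 saline sums.

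The treatment difference at P14 was compared with that in microglia sorted at E13 and E15, within days of the injection, where each group had 3 libraries. In a model of all 18 libraries, edgeR called 0 of 14834 genes for a difference between the P14 and E13 responses, with 164 (1.11%) at an unadjusted p under 0.05, and 0 for P14 against E15, with 145 (0.977%). DESeq2 called 0 in both. The same model called 0 genes for the response at E13 (91 at an unadjusted p under 0.05), 0 at E15 (271) and 0 at P14 (262), so the count of 0 differences sets no called response against another. The ages share no library. E13 MIA replicates 1 and 2 were small, with 272 and 359 cells beside 5991 in replicate 3. Of the study's 122 genes for E13, 73 had the same sign at P14 as at E13 (59.8%, beside 54.8% of all genes), and 6 had an unadjusted p under 0.05 at P14 (3.10% of all genes). Of its 59 genes for E15, 42 had the same sign (71.2%, beside 56.7%) and 0 had an unadjusted p under 0.05 by edgeR, and without 3F and 3M the same-sign count was 34. The median size of the change of the E13 and E15 genes at their own age was 0.16 and 0.22 on the log2 scale, and their median at P14 in that direction was 0.020 and 0.044, or 0.034 and 0.012 without 3F and 3M. Bhlhe41 itself had log2 fold changes of -0.063 at E13 and 0.12 at E15, beside -0.45 at P14, and Hes1 had 0.089 at E13 and 0.41 at E15.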

How the data were processed

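The deposited counts are whole UMIs, not normalized, from the authors' Cell Ranger run on mm10 (version 3.1.0 in the submitters' processing notes, a later one in the study's methods). Barcodes were kept by the rule given first, UMIs were summed per library, and MIA was tested against saline with edgeR 4.0.16 (TMM, filterByExpr by group, quasi-likelihood F test, R 4.3.3, Benjamini-Hochberg over all genes tested, threshold 0.05). The SE is the fold change over the root of F. CPM use TMM-scaled library sizes. DESeq2 1.42.0, scanpy 1.11.5, scipy 1.17.1 and numpy 2.4.6 served the alternatives and library tests. Scrublet's own threshold marked at most 0.0413% of a library, which does not show that doublets of like cells are rare. Doublets stayed in the main test, and the barcodes of highest score were removed in an alternative. Cells with Xist or Tsix UMIs were called female, and cells with none of these and a UMI of Ddx3y, Eif2s3y, Kdm5d or Uty male. Female sums therefore include cells that also held Y-linked UMIs. These were 2.59% to 5.61% of female-called cells in the 4 pools and 0.115% in 3F. The study modelled sequencing batch, which the labels do not give. Positions are from GENCODE vM21. The testing code was tested on simulated data. Members, gene lists and comparisons were chosen with earlier results of these data known.

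Named genes were the 12 of lowest p in each direction with a mean of at least 20 CPM, up to 4 of the most abundant members of each list, Hes1, Lars2 and the 8 most abundant others of the study's list, and the genes used for selection and sex. Others were named after their values were seen: the chemokines and cytokines below the top 4 of their list, Cd74, Isg15, Notch1, Rbpj, Aqp4, Gfap, Klf4, Cebpb, Mki67, Top2a, the sestrins, Gm26510, Gm26526, Gm43221, Ddit4, Fkbp5, Tsc22d3, Tagap, Egr1 and the hemoglobin and histone genes. Counts cover sampling error per library only, and libraries of 22043359 to 32389816 UMIs give wide intervals for genes under 1 CPM. The embryonic libraries entered only the comparison of ages, and the nuclei were not used here. Some items are not reported here.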

Additional observations from a re-analysis of the deposited data

Results flagged for a closer look

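Among 103 sets of 4 saline values checked, 3 had a library far from the others by Dixon's ratio for 4 samples, and chance flags about 1 set in 20. C1qbp was at 85.8 CPM in saline 3M and between 88.4 and 88.8 CPM in the other 3 saline libraries. Slc1a3, a glutamate transporter, was at 138 CPM in saline 1 and between 101 and 104 CPM in the others, near the 134 CPM of MIA 1. The median mitochondrial share was 1.118% in saline 3F and between 1.202% and 1.217% in the others.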

How the results depend on the processing

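All 20 edgeR alternatives of the MIA comparison called 0 genes, with between 175 and 1391 genes at an unadjusted p under 0.05, the latter without saline 1. DESeq2 called 1 gene (Bhlhe41). Replicate numbers 1 and 2 occur in both groups. Deviations from the group means correlated at 0.39 for the number 1 libraries and 0.26 for number 2. The 2 MIA libraries deviate as mirror images, so these values are not separate evidence. On the second principal component (18.8% of the variance) saline 1 and MIA 1 were at 25.5 and 9.61, and saline 2 and MIA 2 at -18.6 and -25.4. Log2 CPM correlated at 0.991 for each same-number pair and at 0.987 between MIA 1 and 2. The correlation was 0.989 for saline 2 with MIA 1, 0.985 for saline 1 with MIA 2 and 0.992 for 3F with 3M. With 2 shared numbers this is a hint and no pairing. With the replicate block edgeR called 0 genes and had 783 at an unadjusted p under 0.05, and DESeq2 with the replicate block called 6: Bhlhe41, Lars2, Ccr1 and AC149090.1 (-0.30) lower, Ccl5 and Tagap higher. The sex by treatment count was 1 with DESeq2 and 113 with no filter on low counts, and the cause was not tested. The age differences stayed at 0 in 9 alternatives each.

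Of 1202 alternatives for 55 genes, 1170 kept the direction. Plek was -0.29 with the replicate block in edgeR and in DESeq2, -0.10 with 3F and 3M summed, -0.084 with sex as a covariate, -0.081 in female and in male cells, and -0.31 for 2 against 2. AC149090.1 was -0.30 with the block and for 2 against 2, -0.094 with 3F and 3M summed, -0.067 with sex as a covariate, -0.00299 without shared barcodes, -0.045 in female and -0.084 in male cells. In female cells alone Pnpla2 was -0.035, Ccl3 -0.040, Fkbp5 -0.11, Tsc22d3 -0.029 and Tagap -0.091. Leaving out each library in turn gave -0.11 to 0.23 for AC149090.1, -0.15 to 0.27 for Plek, -0.10 to 0.15 for Hk2, -0.19 to 0.011 for Elk3, -0.026 to 0.30 for mt-Co1, -0.077 to 0.21 for Zfp36l1 and -0.24 to 0.82 for Tagap. With 2 MIA libraries, leaving one out assumes that the other varies like the saline libraries. The fits for 2 against 2, without shared barcodes, in 1 sex and with the block in DESeq2 were added after seeing the data.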

Other observations

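MIA 1 alone was high in Gm10076 and Hist1h2ap, chosen here after their values were seen. Gm10076, a ribosomal protein-like gene, was at 464 CPM in MIA 1 and between 28.8 and 98.0 CPM in the other libraries. Hist1h2ap was at 68.3 CPM in MIA 1 and between 5.91 and 18.7 CPM in the others. Genes of this kind have near-identical copies elsewhere in the genome, so these values are uncertain.

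Tagap was at 94.3 CPM in MIA 2 and between 37.3 and 63.0 CPM in the other 5 libraries. Ccdc152 was at 49.2 and 49.3 CPM in 3F and 3M and between 3.34 and 18.3 CPM in the 4 pooled libraries.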
